A study of Mus musculus with 6 samples.

Results

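The unfolded protein and ATF4 response genes described here are 37 genes that cells switch on when the endoplasmic reticulum (ER) is overloaded or when amino acids run short. They were taken by symbol from a table of array values: a probe set had to carry exactly 1 gene symbol, and the brightest such probe set, by its mean on the 6 arrays, stands for its gene. All 37 had such a probe set, among 18193 genes that did, and 36 of them were bright enough to be tested together with 13090 genes in all. The probe set of a gene was chosen by measured brightness and by no difference between groups. The member genes, and the wider lists set beside them, were chosen with earlier results of these data known. Of the 37 genes, 14 are ER chaperones and folding enzymes, 4 work in ER-associated degradation, 3 are stress sensors or Xbp1, 8 are factors and feedback regulators of the ATF4 and CHOP branch, and 8 serve amino acid supply under ATF4.

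The RNA came from MVT1 cells, a metastatic mammary tumour line made from a tumour of mice carrying Myc and Vegf transgenes, here tagged with green fluorescent protein (GFP). Syngeneic FVB/N mice received 3000000 of these cells into a vein, and GFP-positive cells were sorted from their lungs. There were 3 groups of 2 arrays: cells from mice gavaged daily with 160 mg/kg of GW2580, a kinase inhibitor of the macrophage growth factor receptor CSF1R, sorted at 2 weeks; cells from vehicle mice at 2 weeks; and cells from vehicle mice at 1 week. Gavage began 1 week after injection, so it also lies between the vehicle groups. By the design text, 2 mice stood behind each vehicle group. The number of mice behind each GW2580 array, as well as the age of all mice, is not stated there or in the labels. The spread between GW2580 arrays may therefore be technical. All groups share the 1 line, its transgenes and its GFP tag, and the target of the drug is a receptor best known from macrophages rather than from the tumour cells measured.

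In the unfolded protein response, the ER membrane sensors IRE1, PERK and ATF6 detect misfolded protein. ATF6 and the XBP1 factor that IRE1 activates turn on chaperones such as BiP and the machinery that exports misfolded proteins for degradation, while PERK slows translation and thereby favours translation of ATF4. ATF4, which also answers to amino acid shortage through the kinase GCN2, turns on amino acid synthesis and transport genes, CHOP and the feedback inhibitors TRIB3 and GADD34. Splicing of Xbp1, cleavage of ATF6 and the amount of ATF4 protein were not measured by these arrays.

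The promoters of the members on which the results turn are shown first, because chaperones and ATF4 targets are known to answer to different elements. The ER stress response element (ERSE, CCAAT and CCACG with 9 bases of any kind between them) is bound by NF-Y together with ATF6 or XBP1. ERSE-II (ATTGG and CCACG with 1 base between them) is a shorter relative, and the C/EBP-ATF response element (TGATGNAA) is bound by ATF4 with a C/EBP partner. Each was searched on both strands in RefSeq promoter windows of GRCm38.p6, which run over 300 bases, 250 before and 50 after the start of transcription. Windows were at hand for 33 of the 37 members, all except Slc7a5, Atf6, Hyou1 and Manf. Capitals mark a match, and all sequences read 5′ to 3′ along the strand of the gene.
Hspa5: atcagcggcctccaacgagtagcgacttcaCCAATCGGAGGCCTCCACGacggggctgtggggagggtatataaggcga
Hsp90b1: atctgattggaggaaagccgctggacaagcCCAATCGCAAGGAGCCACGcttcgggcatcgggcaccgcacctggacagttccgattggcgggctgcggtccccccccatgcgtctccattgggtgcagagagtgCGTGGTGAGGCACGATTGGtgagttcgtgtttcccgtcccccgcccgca
Calr: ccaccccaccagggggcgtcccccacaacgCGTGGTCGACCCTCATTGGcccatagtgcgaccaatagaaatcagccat
Creld2: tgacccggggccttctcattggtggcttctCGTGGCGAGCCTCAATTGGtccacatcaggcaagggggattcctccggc
The Hspa5 stretch is chr2:34771995-34772073 on the plus strand, that of Hsp90b1 is chr10:86705503-86705686 on the minus strand, that of Calr is chr8:84847045-84847123 on the minus strand and that of Creld2 is chr15:88819490-88819568 on the plus strand. They are the best known chaperone promoter, the only member with a pair of ERSE matches, the member second to Sdf2l1 among those higher with GW2580, and the chaperone second to it between the weeks.

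The ATF4 side is shown by the 4 members with a C/EBP-ATF match that were tested. Herpud1 carries an ERSE-II match as well.
Herpud1: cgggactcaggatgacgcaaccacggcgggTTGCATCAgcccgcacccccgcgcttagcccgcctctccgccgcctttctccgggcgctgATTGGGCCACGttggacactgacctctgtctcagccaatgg
Trib3: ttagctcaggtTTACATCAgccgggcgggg
Asns: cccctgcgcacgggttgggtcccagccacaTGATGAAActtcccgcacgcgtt
Chac1: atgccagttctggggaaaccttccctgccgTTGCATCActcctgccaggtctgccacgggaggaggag
These stretches are chr8:94386287-94386417 on the plus strand for Herpud1, chr2:152344028-152344057 on the minus strand for Trib3, chr6:7693210-7693262 on the minus strand for Asns and chr2:119351019-119351086 on the plus strand for Chac1. The Trib3 match lies at bases 14 to 21, counted from 0 at the first transcribed base, and the others lie before the start.

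Sdf2l1, the only member that passed the test in 2 comparisons, held none of the 3 strings in its window. The 100 bases before its start, chr16:17132384-17132483 on the minus strand, are printed with no capitals.
Sdf2l1: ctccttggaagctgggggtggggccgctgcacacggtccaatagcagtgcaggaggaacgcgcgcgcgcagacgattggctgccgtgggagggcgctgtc
The lack of a match says only that these letters are not in this window.

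ERSE matches were present in 8 of the 33 windows (Hspa5, Hsp90b1, Pdia6, Calr, Canx, Dnajc3, Creld2 and Syvn1), against 39 of all 32851 promoters, or 0.119%. ERSE-II was found in 2 members, Dnajb11 and Herpud1, against 12 promoters in all, or 0.0365%. The C/EBP-ATF string, which is short and frequent, was found in 5 members (Chac1, Trib3, Slc7a11, Asns and Herpud1) and in 1304 of all promoters, or 3.97%. The strings were searched because chaperones and ATF4 targets are known to answer to them, and the windows of the members are among all promoters. The shares therefore only describe the windows. A match describes the sequence and is no proof of a site in use.

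**Figure D1:**
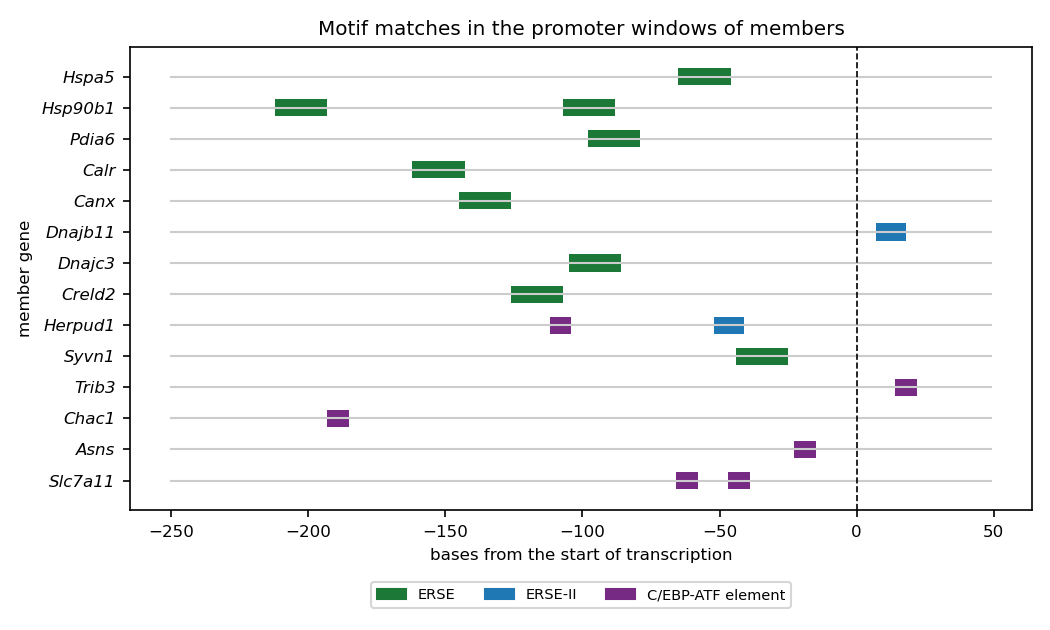
Positions of the motif matches in the promoter windows of the members that hold one, in bases from the start of transcription (dashed line at 0), coloured by motif. ERSE matches of the 8 chaperone and degradation members lie between -212 and -26, and the C/EBP-ATF matches of 5 members between -193 and 21.

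Levels are log2 values that the authors made with RMA, in which 1 unit is a 2-fold difference, and differences are log2 differences with standard errors (SE) and Benjamini-Hochberg adjusted p from limma over the 13090 genes. Genes with an adjusted p under 0.05 were called. A difference with GW2580 is GW2580 minus vehicle at 2 weeks, and a difference between the weeks is vehicle at 2 weeks minus vehicle at 1 week. A shift shared by most genes on an array is hidden by the quantile step of RMA, arrays give no read depth, and the number of arrays limits the precision. In a sorted bulk sample, fewer cells of a type and less RNA per cell cannot be told apart. The keratin genes Krt8 and Krt18 read between 12.93 and 13.82 on all arrays, while Cdh1, the epithelial cadherin, read 3.49 to 3.99, below the filter of 4.97, and 9 of 15 epithelial markers were tested. On replicate 2 of the 2-week vehicle arrays beta-actin gave 1.20 log2 units more signal at its 3′ end than at its 5′ end, where the other 5 arrays gave 0.38 to 0.50. For Gapdh the same measure was 0.92 on that array, against -0.13 to -0.10 on the others. Such ratios are a usual measure of RNA integrity. On replicate 1 of the 1-week vehicle arrays the BioB hybridisation control averaged 10.21, against 8.89 to 9.14 on the others. Within a group, arrays correlated over genes at 0.988 for GW2580, 0.992 for 2-week vehicle and 0.992 for 1-week vehicle.

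Between the vehicle groups, 1 member rose and 1 fell at 2 weeks. Trib3, the ATF4 and CHOP target that feeds back on both factors and on AKT, rose 1.98-fold, and Sdf2l1, a partner of BiP in ER protein folding, fell 1.88-fold. That is 2 of 36 members called, where 6.45% of all genes tested were called in either direction, 3.74% upward and 2.71% downward, so the share is near the background. The 14 chaperone and folding genes nevertheless all read lower at 2 weeks, with a median difference of -0.37 against 0.02 over all genes tested. Below 0 lay 47.1% of all genes.

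With GW2580, Sdf2l1 rose 1.83-fold over 2-week vehicle. It was the 1 member called of 36, where 0.367% of all genes were called in either direction and 0.0688% upward. Of the 14 chaperone and folding genes, 12 read higher with GW2580, against 41.7% of all genes, and their median was 0.25 against -0.05 over all genes. The 7 tested amino acid genes had a median of -0.21, and 6 of them read lower. The 2-week vehicle arrays stand in both comparisons, entering them with opposite sign.

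**Figure D2:**
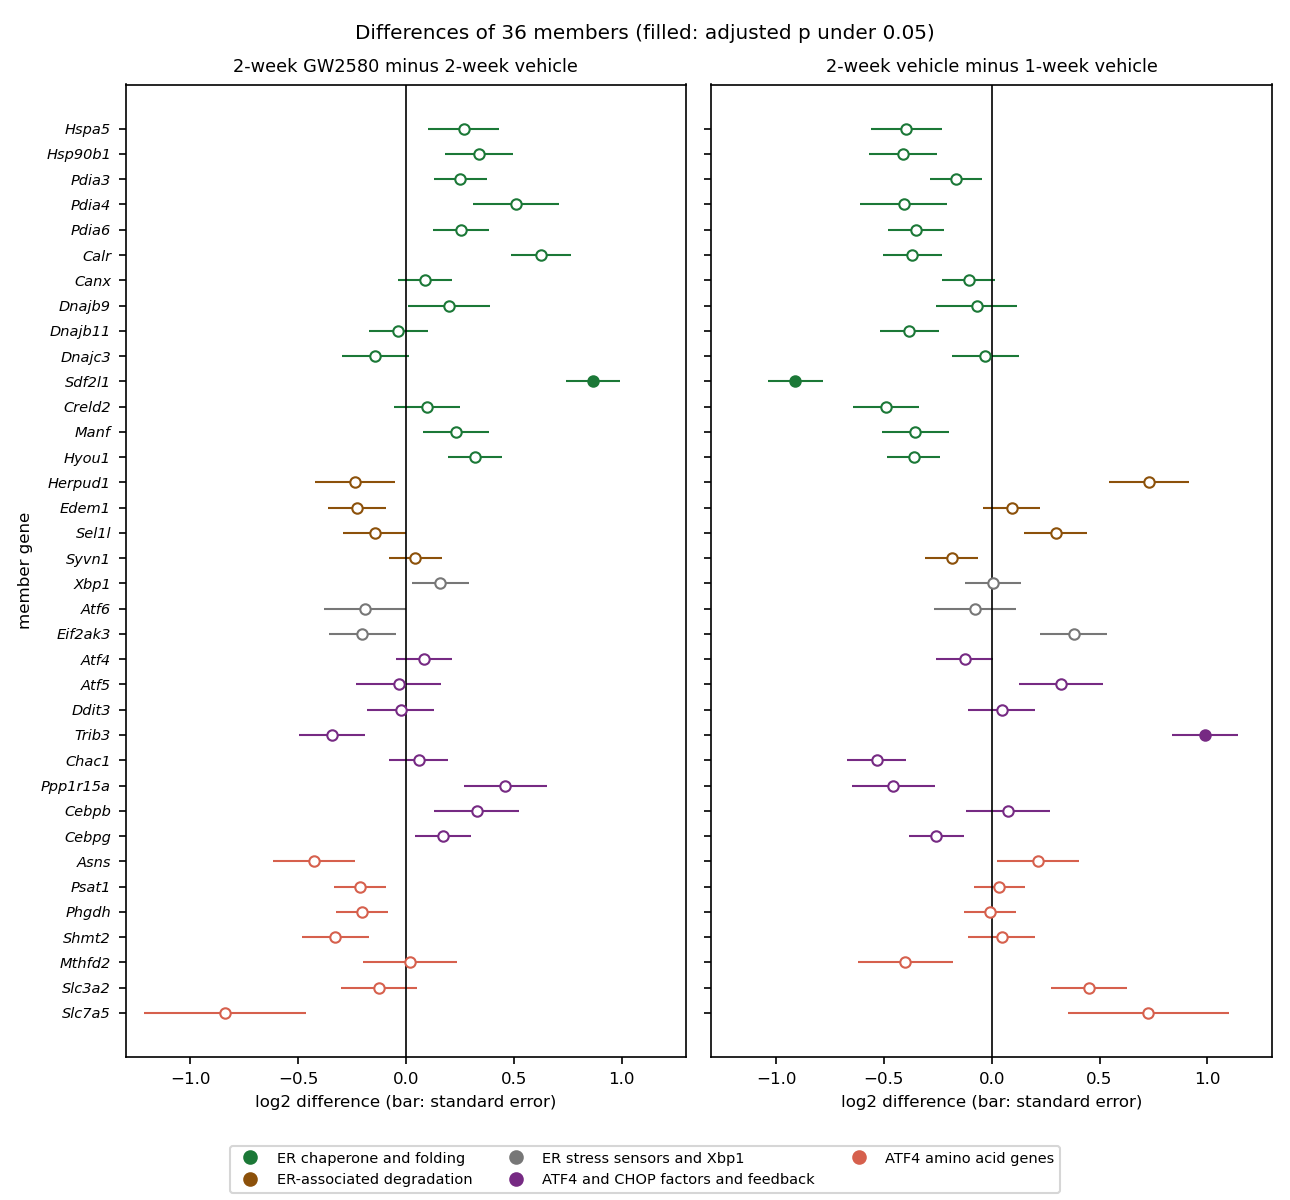
Log2 differences of the 36 tested members for GW2580 minus vehicle at 2 weeks (left) and for vehicle at 2 weeks minus 1 week (right), with standard errors as bars, grouped and coloured by role. Filled points passed an adjusted p of 0.05: Sdf2l1 at 0.87 with GW2580, and Trib3 at 0.99 and Sdf2l1 at -0.91 between the vehicle groups.

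Sdf2l1 read 9.49 and 9.58 in GW2580 cells, against 8.62 and 8.72 in 2-week vehicle cells and 9.66 and 9.51 in 1-week vehicle cells. The 2-week vehicle arrays were the 2 lowest, and neither the GW2580 nor the 1-week arrays overlapped them. The fall at 2 weeks was -0.91 (SE 0.13, limma adjusted p = 0.0139) and the rise with GW2580 0.87 (SE 0.13, limma adjusted p = 0.0463). GW2580 and 1-week cells differed by -0.04 (SE 0.13, limma adjusted p = 0.904), and the 2 groups' arrays overlapped. The gene has 1 probe set, so no second reading was used here. The rise with GW2580 lost its call whichever 1 of the 6 arrays was left out, with adjusted p between 0.0613 without GW2580 replicate 2 and 0.167 without GW2580 replicate 1, while the difference lay between 0.82 and 0.92. Leaving out a 1-week array, which does not enter this difference but informs the spread, gave 0.107. The fall at 2 weeks lost its call without 1-week replicate 1 (adjusted p = 0.151) and without 2-week vehicle replicate 1 (0.0772) or 2 (0.0511).

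The lectin chaperone calreticulin, encoded by Calr, read 12.69 and 12.61 in GW2580 cells, against 11.89 and 12.15 in 2-week vehicle cells and 12.44 and 12.34 in 1-week vehicle cells. Both GW2580 arrays lay above all 4 vehicle arrays. With GW2580 it was 0.63 higher (SE 0.14, fold 1.54), with an adjusted p of 0.0904 by limma, and it passed with a trended and robust prior (0.0312). Its 2 further probe sets gave 0.64 in both cases. Between the vehicle groups its difference was -0.37 (SE 0.14, limma adjusted p = 0.154).

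BiP, the main Hsp70 of the ER and a sensor of its load, is encoded by Hspa5. It read 13.42 and 13.11 in GW2580 cells, against 12.89 and 13.10 in 2-week vehicle cells and 13.53 and 13.26 in 1-week vehicle cells. The 2-week vehicle arrays were below the others, narrowly so for the nearer GW2580 array. Neither the difference with GW2580, 0.27 (SE 0.16, limma adjusted p = 0.428), nor that between weeks, -0.40 (SE 0.16, limma adjusted p = 0.193), passed. GRP94, the ER form of HSP90 encoded by Hsp90b1, read 11.96 and 11.73 in GW2580 cells, against 11.37 and 11.64 in 2-week vehicle cells and 12.03 and 11.80 in 1-week vehicle cells. It had the same order of groups, with differences of 0.34 with GW2580 and -0.41 between the weeks, neither called.

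The protein disulfide isomerases form and rearrange disulfide bonds. Pdia4 read 10.39 and 11.01 in GW2580 cells, against 10.16 and 10.21 in 2-week vehicle cells and 10.50 and 10.69 in 1-week vehicle cells. Its 2 GW2580 arrays stood far apart, and the difference of 0.51 (SE 0.20, limma adjusted p = 0.237) did not pass. Pdia3 and Pdia6 differed by 0.25 each with GW2580, and by -0.17 and -0.35 between the weeks. Hyou1, the nucleotide exchange partner of BiP also called GRP170, read 9.53 and 9.56 in GW2580 cells, against 9.27 and 9.19 in 2-week vehicle cells and 9.66 and 9.52 in 1-week vehicle cells. No 2-week vehicle array reached the other groups, and the differences of 0.32 with GW2580 and -0.36 between the weeks were not called. Dimmer probe sets of Hyou1 gave 0.76 and 0.14 with GW2580, and -0.33 and -0.15 between the weeks.

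Not every folding gene had the order of Sdf2l1. Creld2, a secreted ER stress protein, read 9.43 and 9.53 in GW2580 cells, against 9.25 and 9.51 in 2-week vehicle cells and 10.01 and 9.73 in 1-week vehicle cells. Both 2-week groups lay below the 1-week arrays and overlapped each other. Its difference between the weeks was -0.49 (SE 0.15, limma adjusted p = 0.099), and with GW2580 it was 0.10. The co-chaperone gene Dnajb11 read 10.00 and 10.03 in GW2580 cells, against 10.01 and 10.08 in 2-week vehicle cells and 10.57 and 10.29 in 1-week vehicle cells. It too was lower in both 2-week groups, by -0.38 between the weeks and by -0.42 for GW2580 against 1 week.

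Of the remaining folding genes, Manf, a secreted factor kept in the ER by BiP, differed by 0.23 with GW2580 and -0.35 between the weeks. Canx, the membrane lectin chaperone, differed by 0.09 and -0.11, and the BiP co-chaperone Dnajb9 by 0.20 and -0.07. Dnajc3, which codes for an inhibitor of PERK that also assists BiP, differed by -0.14 and -0.03. Its further probe sets ranged between -0.07 and 0.17 with GW2580 and between -0.36 and 0.00 for the weeks, so its direction with GW2580 is not settled. Manf, Canx, Dnajb9 and Dnajc3 were not called in any comparison.

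Over the 14 chaperone and folding genes, no 2-week vehicle array overlapped the GW2580 arrays for 10 genes, all of them higher with GW2580, where 18.3% of all genes were. Between the weeks 11 genes were lower without overlap, where 25.2% of all genes were. At an unadjusted p under 0.05, 4 were higher with GW2580 (background 5.36%) and 9 were lower at 2 weeks (background 9.45%). The mean level of the group was 10.90 and 10.90 on the GW2580 arrays, against 10.57 and 10.68 on the 2-week vehicle arrays and 11.02 and 10.92 on the 1-week vehicle arrays. These genes are known to be regulated together, so their number is not a number of independent observations. They were also chosen with earlier results of these data known, so the counts only describe them. With the 4 degradation genes included, the median between the weeks was -0.35, and it was -0.37 without the 2-week vehicle replicate of high actin ratio, -0.24 without the other one and -0.26 without the 1-week replicate of high BioB. With GW2580 the same median was 0.21, and it was 0.22 without the replicate of high actin ratio, 0.14 without the other 2-week vehicle replicate, 0.13 without GW2580 replicate 1 and 0.14 without GW2580 replicate 2.

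**Figure D3:**
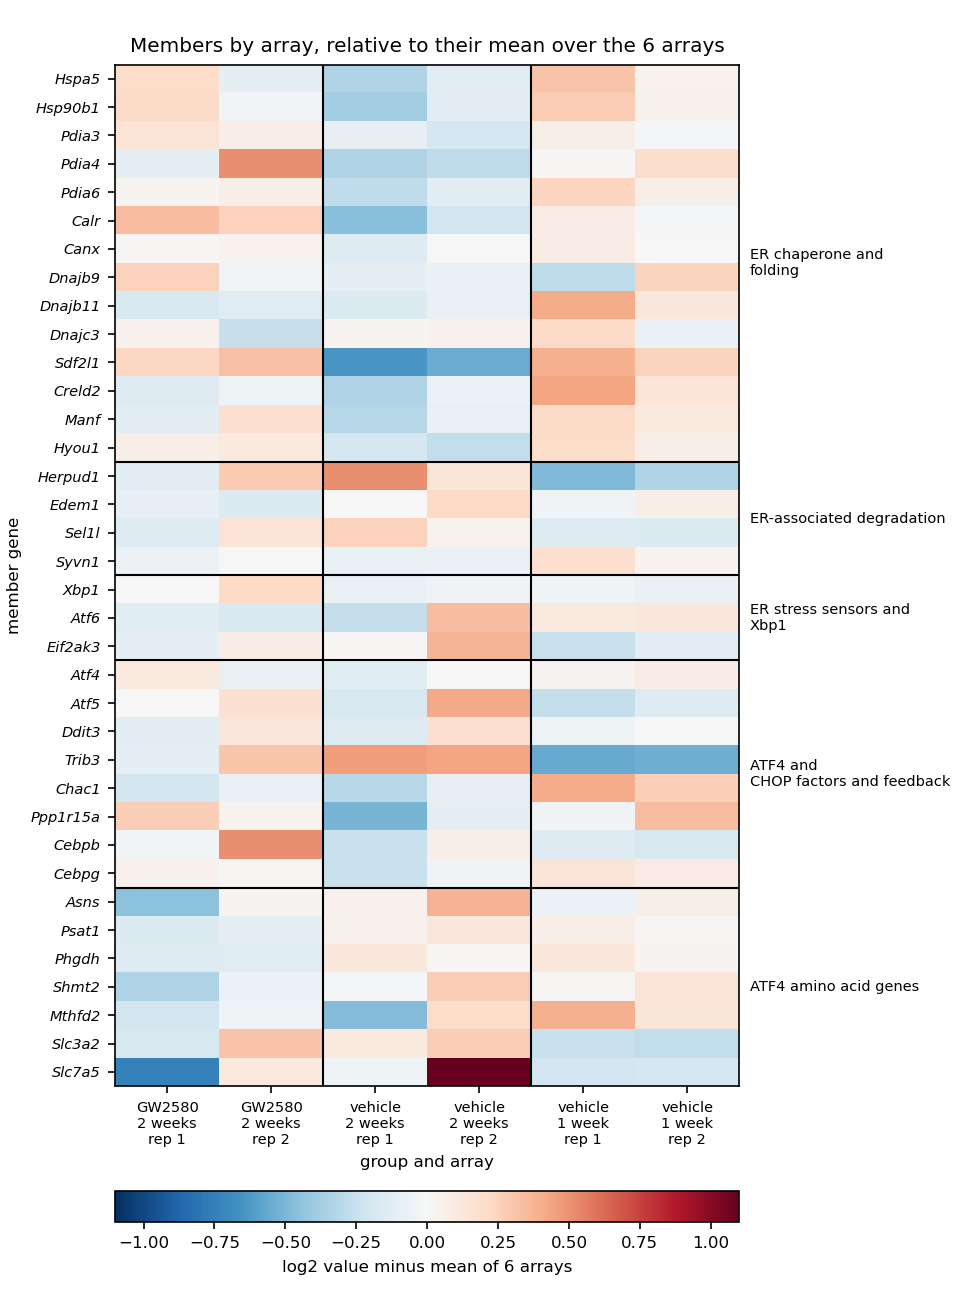
Each of the 36 tested members on each of the 6 arrays, as log2 value minus the mean of the gene over the arrays, with rows grouped by role. The mean of the chaperone and folding rows is lowest on the 2-week vehicle arrays, at 10.57 and 10.68, while that of the amino acid rows is lowest on GW2580 replicate 1, at 10.21.

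The mean of the epithelial markers had a like order: 9 tested genes averaged 7.96 to 8.03 on GW2580 arrays, against 7.76 to 7.81 on 2-week vehicle arrays and 7.90 to 8.23 on 1-week vehicle arrays. The brightest of them did not share it. Krt8 read 13.58 and 13.52 in GW2580 cells, against 13.53 and 13.59 in 2-week vehicle cells. Krt18 read 12.93 and 12.98, against 12.96 and 13.07, and both genes were highest at 1 week. With GW2580 the largest difference was that of Krt19, at 0.94 (limma adjusted p = 0.195). The 14 lung epithelium markers averaged 6.62 to 7.34 on GW2580 arrays, against 7.09 to 7.14 on 2-week vehicle arrays and 7.28 to 7.62 on 1-week vehicle arrays. Among them the surfactant genes Sftpd and Sftpa1 were called: with GW2580 Sftpd fell by 1.12 and Sftpa1 fell by 1.78, and Sftpd rose by 0.89 between the weeks. Scgb1a1 of the same list differed by -3.16 between the weeks (limma adjusted p = 0.109). It read 10.91 and 7.59 in GW2580 cells, against 6.49 and 8.08 in 2-week vehicle cells and 11.31 and 9.59 in 1-week vehicle cells. Scgb3a2 and Cyp2f2 were also lower on both 2-week vehicle arrays than on the 1-week arrays, and were not called. The 10 tested fibroblast and smooth muscle markers averaged 6.72 to 7.34 on GW2580 arrays, against 6.955 to 6.997 on 2-week vehicle arrays and 7.22 to 8.02 on 1-week vehicle arrays. Plasma cells, which are rich in ER, had 3 tested markers of 8, which averaged 8.03 to 8.21 on GW2580 arrays, against 8.09 to 8.25 on 2-week vehicle arrays and 8.06 to 8.10 on 1-week vehicle arrays. Of the 3, Sdc1 was by far the brightest, at a mean of 10.95 against 7.47 for Ighm and 5.95 for Mzb1. It differed by 0.30 between the weeks and by -0.30 with GW2580, neither called. The defining plasma cell genes Jchain, Tnfrsf17, Prdm1 and Irf4 were below the filter, so these means may not trace plasma cells. The 19 tested macrophage markers averaged 6.66 to 6.99 on GW2580 arrays, against 6.895 to 7.002 on 2-week vehicle arrays and 6.91 to 6.92 on 1-week vehicle arrays, with Cd68 at 9.659 to 10.998 over all arrays. Csf1r, the gene of the drug's target, read 7.22 to 7.91 over all arrays, above the filter of 4.97.

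Markers of several cell types differed mostly in the same directions as the chaperones, and those of others did not. Between weeks, 8 of 9 epithelial, 9 of 10 fibroblast and smooth muscle and 3 of 4 erythroid and platelet markers were lower (background 47.1%). With GW2580, 6, 6 and 3 of them were higher (background 41.7%). The fibroblast and smooth muscle median with GW2580 was 0.06. Higher between the weeks were 9 of 14 lung epithelium, 10 of 19 macrophage and 4 of 6 neutrophil markers (background 52.9%). With GW2580, 8, 14 and 2 of these were lower (background 58.3%). All 8 tested lymphocyte and natural killer cell markers of 14 read lower at 2 weeks than at 1 week in vehicle cells. Without overlap 5 of them did (background 25.2%), and the median was -0.19. With GW2580 6 of 8 read higher, with a median of 0.21. They averaged 5.985 to 6.218 on GW2580 arrays, against 5.929 to 6.001 on 2-week vehicle arrays and 6.218 to 6.242 on 1-week vehicle arrays, so GW2580 overlapped 2-week vehicle and reached the lower 1-week array. Ptprc, the pan-leukocyte gene for CD45, was the 1 called: it read 6.98 and 6.85 in GW2580 cells, against 6.97 and 7.11 in 2-week vehicle cells and 7.57 and 7.73 in 1-week vehicle cells, and fell by 0.61 between the weeks (limma adjusted p = 0.0387). The B cell genes Cd79b and Ms4a1 and the natural killer cell gene Ncr1 were below the filter. The 6 tested endothelial markers averaged 6.22 to 6.25 on GW2580 arrays, against 5.96 to 6.13 on 2-week vehicle arrays and 6.10 to 6.27 on 1-week vehicle arrays, with Pecam1 below the filter. The 4 tested erythroid and platelet markers averaged 6.397 to 6.663 on GW2580 arrays, against 6.332 to 6.333 on 2-week vehicle arrays and 6.394 to 6.413 on 1-week vehicle arrays, with Hba-a1 below the filter. The 6 tested neutrophil markers averaged 6.01 to 6.74 on GW2580 arrays, against 6.49 to 6.83 on 2-week vehicle arrays and 6.16 to 6.31 on 1-week vehicle arrays. The part of other cell types in the chaperone values was not tested.

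Of the 4 degradation genes, Syvn1 had the order of most chaperones and the other 3 did not. Herpud1, whose product gathers the ER ubiquitin ligase complex, read 9.48 and 9.89 in GW2580 cells, against 10.11 and 9.74 in 2-week vehicle cells and 9.11 and 9.27 in 1-week vehicle cells. Both 2-week groups lay above the 1-week arrays and overlapped each other. The difference between the weeks was 0.73 (SE 0.18, fold 1.66, limma adjusted p = 0.0568), and a second probe set gave 0.55. It passed with a common 75th percentile (0.0499), a trended and robust prior (0.0371), array weights (0.0349) or the vehicle arrays alone (0.0428). With GW2580 Herpud1 differed by -0.24.

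Sel1l, which codes for the adaptor of the ligase HRD1, read 9.39 and 9.68 in GW2580 cells, against 9.78 and 9.58 in 2-week vehicle cells and 9.39 and 9.38 in 1-week vehicle cells. The GW2580 arrays overlapped the 2-week vehicle arrays, and the gene differed by 0.30 between the weeks and by -0.14 with GW2580. Its 4 further probe sets ranged between -0.68 and 0.28 for the weeks and between -0.02 and 0.79 for GW2580, so its direction is not settled. The mannosidase-like lectin gene Edem1 read 10.38 and 10.32 in GW2580 cells, against 10.46 and 10.69 in 2-week vehicle cells and 10.43 and 10.54 in 1-week vehicle cells. It was lowest with GW2580, and differed by 0.09 between the weeks and -0.23 with GW2580. A second probe set of Edem1 gave 0.15 and -0.42. Syvn1, for HRD1 itself, read 8.86 and 8.92 in GW2580 cells, against 8.85 and 8.85 in 2-week vehicle cells and 9.11 and 8.96 in 1-week vehicle cells. The 2-week vehicle arrays were lowest, by a narrow margin to GW2580, with differences of 0.04 with GW2580 and -0.19 between the weeks. None of the 4 was called. Their median was 0.19 between the weeks and -0.19 with GW2580.

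None of the 3 sensor genes was called, and at an unadjusted p under 0.05 only Eif2ak3 between the weeks was, as were 14.1% of all genes in that direction. Xbp1, whose mRNA IRE1 splices, read 11.35 and 11.57 in GW2580 cells, against 11.28 and 11.32 in 2-week vehicle cells and 11.31 and 11.28 in 1-week vehicle cells. Both GW2580 arrays were above the vehicle arrays, but the difference of 0.16 was small and not called (limma adjusted p = 0.555), and between the weeks it was 0.00. Atf6 read 9.12 and 9.09 in GW2580 cells, against 8.99 and 9.60 in 2-week vehicle cells and 9.37 and 9.38 in 1-week vehicle cells. The 2-week vehicle arrays spanned all others, so no order of the groups can be read.

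PERK is encoded by Eif2ak3, which read 8.73 and 8.91 in GW2580 cells, against 8.84 and 9.20 in 2-week vehicle cells and 8.58 and 8.70 in 1-week vehicle cells. It differed by 0.38 between the weeks (SE 0.16, limma adjusted p = 0.190) and by -0.20 with GW2580. A second, dimmer probe set gave -0.39 and 0.51, and on it the 2-week vehicle replicate with the high actin ratio read 5.50, against 6.17 to 6.43 on the other arrays. The part of RNA quality in these values was not tested.

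Among the ATF4 and CHOP factors, Trib3 stood out. It read 8.63 and 9.03 in GW2580 cells, against 9.19 and 9.16 in 2-week vehicle cells and 8.18 and 8.20 in 1-week vehicle cells. All 3 groups were apart from each other, with GW2580 between the vehicle groups. The rise between the weeks was 0.99 (SE 0.15, limma adjusted p = 0.0183), and a second probe set gave 0.93. GW2580 differed from 2-week vehicle by -0.34 (SE 0.15, limma adjusted p = 0.291) and from 1-week vehicle by 0.65 (SE 0.15, limma adjusted p = 0.0983). The rise lost its call without 1-week replicate 1 (adjusted p = 0.171) or 2 (0.0566) and without 2-week vehicle replicate 1 (0.0862) or 2 (0.0699), with differences of 0.98 to 1.00.

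Atf4 itself read 12.10 and 11.91 in GW2580 cells, against 11.85 and 11.98 in 2-week vehicle cells and 12.02 and 12.07 in 1-week vehicle cells. The GW2580 arrays overlapped both vehicle groups, and neither 0.09 with GW2580 nor -0.13 between the weeks was called. Ddit3, for the pro-apoptotic factor CHOP, read 8.06 and 8.30 in GW2580 cells, against 8.04 and 8.37 in 2-week vehicle cells and 8.14 and 8.18 in 1-week vehicle cells. All groups overlapped. Its differences were -0.02 with GW2580 (limma adjusted p = 0.951) and 0.05 between the weeks (limma adjusted p = 0.902).

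Not all targets of this branch had the order of Trib3. Chac1, whose product degrades glutathione and which is a target of ATF4 and CHOP, read 7.11 and 7.24 in GW2580 cells, against 7.01 and 7.22 in 2-week vehicle cells and 7.73 and 7.58 in 1-week vehicle cells. Both 2-week groups were below 1 week, opposite to Trib3, and they overlapped each other. The difference between the weeks was -0.53 (SE 0.14, limma adjusted p = 0.0583), which passed with a common 75th percentile (0.0498) or array weights (0.0384).

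Ppp1r15a, which encodes GADD34, the phosphatase subunit that restores translation, read 11.16 and 10.94 in GW2580 cells, against 10.38 and 10.80 in 2-week vehicle cells and 10.85 and 11.24 in 1-week vehicle cells. The 2-week vehicle arrays were lowest, with differences of 0.46 with GW2580 (SE 0.19, limma adjusted p = 0.263) and -0.46 between the weeks (SE 0.19, limma adjusted p = 0.200). Cebpb, a C/EBP partner of ATF4, read 10.89 and 11.43 in GW2580 cells, against 10.67 and 10.99 in 2-week vehicle cells and 10.78 and 10.74 in 1-week vehicle cells. GW2580 and 2-week vehicle overlapped, and the difference was 0.33 (limma adjusted p = 0.418). Its second probe set gave 0.90, with 8.55 on the 2-week vehicle replicate of high actin ratio and 9.61 to 10.32 elsewhere.

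Cebpg, another partner of ATF4, differed by 0.17 with GW2580 and -0.26 between the weeks, and the related factor gene Atf5 by -0.03 and 0.32. Over the 8 factors the median was 0.07 with GW2580 and -0.04 between the weeks, with 5 and 4 genes above 0, where 41.7% and 52.9% of all genes were.

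**Figure D4:**
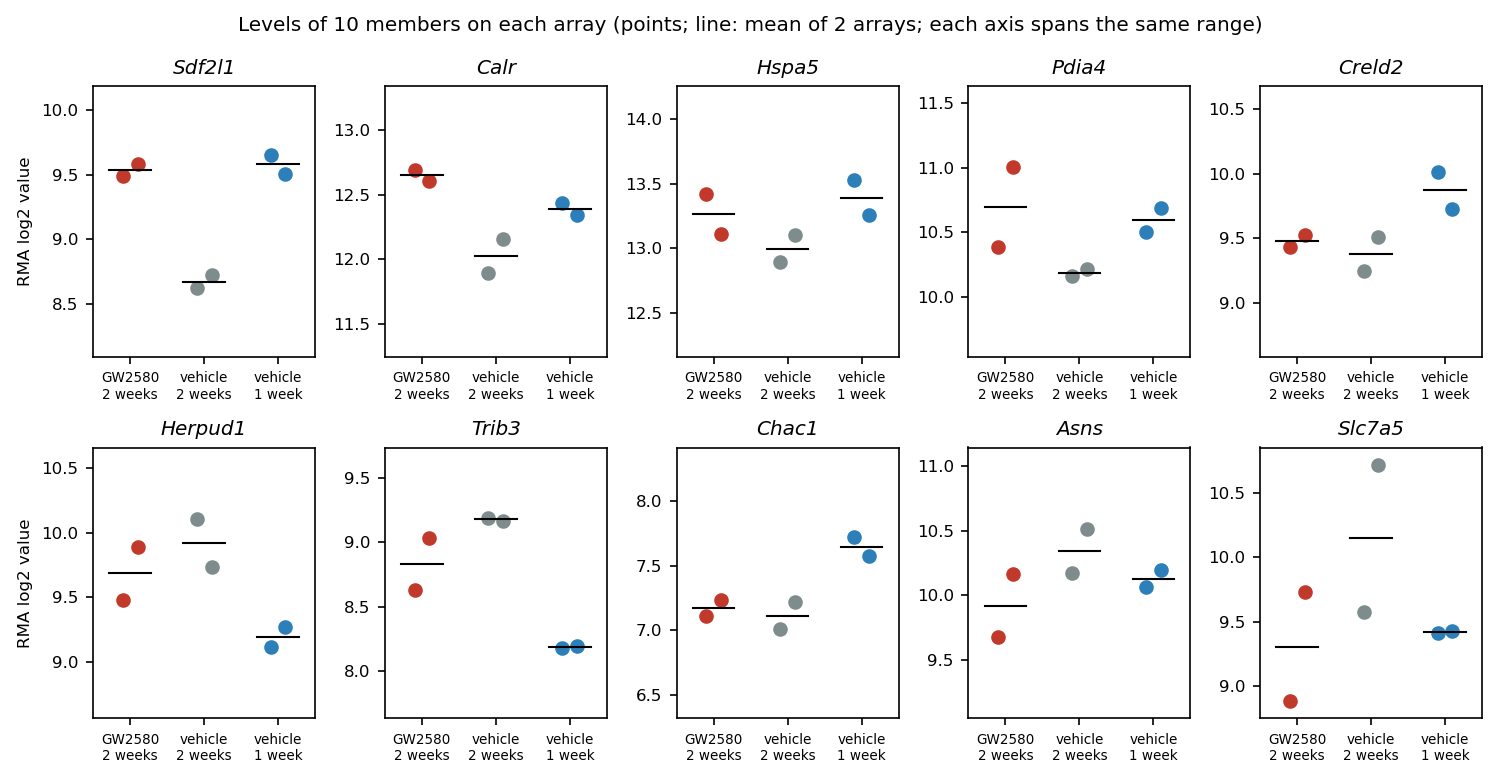
RMA log2 values of 10 members on each array, with GW2580 at the left, 2-week vehicle in the middle and 1-week vehicle at the right of each panel; points are arrays and lines are means of 2 arrays. Sdf2l1 is lowest on the 2-week vehicle arrays at 8.62 and 8.72, and Trib3 is highest there at 9.19 and 9.16.

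The amino acid genes had no called member in any comparison. At an unadjusted p under 0.05 on the brightest probe sets, Slc3a2 was higher between the weeks and no other tested member differed in any comparison. Further probe sets of Asns (-0.84) and Shmt2 (-0.37) passed that level with GW2580 against 2-week vehicle. Those of Asns (-0.47) and Phgdh (-0.27) did so for GW2580 against 1 week, and that of Mthfd2 (-0.67) between the weeks. Asns, for asparagine synthetase, a classical ATF4 target, read 9.68 and 10.16 in GW2580 cells, against 10.18 and 10.51 in 2-week vehicle cells and 10.06 and 10.19 in 1-week vehicle cells. GW2580 replicate 1 was the lowest array, and the GW2580 arrays lay below the 2-week vehicle arrays. The difference with GW2580 was -0.43 (SE 0.19, limma adjusted p = 0.292), and a second probe set gave -0.84. Between the weeks Asns differed by 0.22.

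Slc7a5 codes for the light chain of the LAT1 carrier of large neutral amino acids. It read 8.89 and 9.73 in GW2580 cells, against 9.58 and 10.72 in 2-week vehicle cells and 9.41 and 9.43 in 1-week vehicle cells. Arrays of a group were further apart than for any other tested member in both 2-week groups, at an SD of 0.60 for GW2580 and 0.81 for 2-week vehicle, so -0.84 with GW2580 (SE 0.37, limma adjusted p = 0.290) and 0.73 between the weeks were not called. Its heavy chain partner Slc3a2 read 10.998 and 11.493 in GW2580 cells, against 11.29 and 11.45 in 2-week vehicle cells and 10.93 and 10.90 in 1-week vehicle cells. Both 2-week groups were above 1 week, by 0.45 for vehicle (limma adjusted p = 0.167).

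Serine synthesis was represented by Phgdh, its first enzyme, and Psat1, its transaminase. Phgdh read 11.63 and 11.64 in GW2580 cells, against 11.89 and 11.79 in 2-week vehicle cells and 11.89 and 11.80 in 1-week vehicle cells. GW2580 arrays were below all vehicle arrays by a small margin, and the difference of -0.20 was not called. Psat1 differed by -0.21 with GW2580 and by 0.04 between the weeks.

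Mitochondrial one-carbon metabolism was represented by Shmt2 and Mthfd2. Shmt2 read 9.89 and 10.16 in GW2580 cells, against 10.21 and 10.49 in 2-week vehicle cells and 10.24 and 10.37 in 1-week vehicle cells. It was below all vehicle arrays with GW2580, by -0.33 against 2-week vehicle (limma adjusted p = 0.317). Mthfd2 read 8.76 and 8.93 in GW2580 cells, against 8.49 and 9.17 in 2-week vehicle cells and 9.36 and 9.10 in 1-week vehicle cells, and its differences of 0.02 with GW2580 and -0.40 between the weeks were not called. Slc7a11, for the cystine carrier, read 4.21 and 4.68 in GW2580 cells, against 4.37 and 4.65 in 2-week vehicle cells and 4.35 and 4.37 in 1-week vehicle cells. It was below the filter and was not tested.

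Of the 7 tested amino acid genes, 4 were lower with GW2580 than with vehicle at 2 weeks without overlap (background 31.5%), and 1 lay above 0. The mean of the group was 10.21 and 10.54 on GW2580 arrays, against 10.49 and 10.86 on 2-week vehicle arrays and 10.53 and 10.51 on 1-week vehicle arrays. The 2 GW2580 arrays were thus as far apart as the groups.

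GW2580 against 1-week vehicle gave no called member of 36, with 0.512% of all genes called. At an unadjusted p under 0.05, 2 members were higher and 3 lower, against backgrounds of 6.64% and 10.4%. The medians were -0.06 for the 14 chaperone and folding genes and -0.21 for the 7 amino acid genes, against -0.02 over all genes. This comparison shares its GW2580 arrays with the drug comparison and its 1-week arrays with the time comparison.

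Set against the promoter strings, the 8 members with an ERSE match had a median of 0.18 with GW2580 (range -0.14 to 0.63) and of -0.36 between the weeks (range -0.49 to -0.03). The 2 members with an ERSE-II match had opposite signs between the weeks, at -0.38 for Dnajb11 and 0.73 for Herpud1, and differed by -0.03 and -0.24 with GW2580. With them included, the 10 members with either element had a median of 0.09 with GW2580 and -0.36 between the weeks. The 4 tested members with a C/EBP-ATF match had a median of -0.29 with GW2580 (range -0.43 to 0.06) and 0.47 between the weeks (range -0.53 to 0.99). The 19 tested members with a window and no match had medians of 0.02 and 0.00, and they mix all roles. Their chaperone and folding genes Sdf2l1, Pdia4, Pdia3 and Dnajb9 differed by 0.87, 0.51, 0.25 and 0.20 with GW2580. Between the weeks these genes differed by -0.91, -0.41, -0.17 and -0.07. The ERSE set holds chaperone and degradation genes only, so the sets differ in role as well as in match. Within the C/EBP-ATF set, Trib3 and Chac1 lay at the opposite ends between the weeks.

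Probe sets of a gene disagreed for some members. Over 84 probe sets with a member symbol alone, 27 members had more than 1. The third probe set of Canx, at a mean of 7.63, gave 0.56 between the weeks and -0.71 with GW2580, against -0.11 and 0.09 on the brightest. The second of Ddit3 gave -0.50 between the weeks and 0.65 with GW2580, but its GW2580 arrays read 7.78 and 6.35. Those of Hspa5, Hsp90b1, Calr, Herpud1 and Trib3 had the sign of the brightest probe set in both comparisons.

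Other genes of the same pathways were counted from wider lists, to be read against the 3.74% of all genes that rose and the 2.71% that fell between the weeks. Of 26 other ER folding and redox genes, 3 rose between the weeks and none fell: Nucb2, a calcium-binding protein of the secretory path, by 0.90, the oligosaccharyltransferase subunit gene Tmem258 by 0.66 and the prolyl isomerase gene Fkbp14 by 0.64. Their median was 0.10, above that of the 14 chaperone members. Of 22 translocation and glycosylation genes 1 rose (Ssr4, of the translocon-associated complex, by 0.70), and of 23 other degradation genes 1 rose (Erlec1, an ER lectin, by 0.82) and 1 fell (Derl2, a Derlin channel subunit, by 0.61). Of 18 other sensors and transducers, 1 fell, Traf2, an adaptor that binds IRE1, by 0.57.

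Of 22 other ATF4 and CHOP targets, the lipoprotein receptor gene Vldlr rose by 1.22 between the weeks, the factor gene Atf3 fell by 1.67, and the pseudokinase gene Trib1, a relative of Trib3, fell by 0.85. Atf3 read 11.95 and 10.96 in GW2580 cells, against 10.42 and 10.83 in 2-week vehicle cells and 12.20 and 12.39 in 1-week vehicle cells. Of 23 other amino acid and one-carbon genes and 19 aminoacyl-tRNA synthetases none was called. No gene of these 7 lists was called with GW2580, while at an unadjusted p under 0.05 up to 3 genes of a list were higher and up to 4 lower (backgrounds 5.36% and 12.6%). The synthetases had a median of -0.24 with GW2580 and 15 of 19 lay below 0, against 58.3% of all genes. Ero1a, the oxidase that recharges disulfide isomerases, read 11.14 and 11.59 in GW2580 cells, against 10.30 and 10.72 in 2-week vehicle cells and 10.08 and 10.48 in 1-week vehicle cells. It was highest with GW2580 by 0.85 (SE 0.22, limma adjusted p = 0.114).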

How the data were processed

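Log2 expression values of 45101 probe sets on Affymetrix whole-genome mouse arrays were deposited by the authors. The submitters' processing notes name RMA, which corrects background, quantile-normalises across arrays and summarises probes. Neither a version of RMA nor the definition of the probe sets is given in the sources used here. Labelling started from 2 µg of total RNA, per the labels' protocols.

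After 64 control probe sets were left out, 34945 had 1 gene symbol, 932 several and 9160 none. Of those with 1, 34741 had their gene identifier in RefSeq's table for GRCm38.p6, and 0 symbols changed. The brightest probe set was kept for each of 18193 genes. Genes with a mean under 4.97, the 40th percentile, were left out, which left 13090.

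The test was limma (version 3.58.1, R 4.3.3) with group means as coefficients over 6 arrays in 3 groups, and eBayes without trend (3 residual and 4.97 prior degrees of freedom). The fit and the motif search were tested on simulated data. A permutation test of 2 arrays against 2 cannot reach 0.05 and was not used. P-values measure the spread between arrays only.

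The members and lists were chosen with earlier results of these data known. By the rule for named genes, every called member and, per role and comparison, the 3 members with the largest difference were given by array, and of wider lists at most 3 genes per comparison. Hspa5, Hyou1, Dnajb11, Atf4, Ddit3, Phgdh and Slc7a11 were added by array after their values were seen. The labels do not say that replicate numbers mark pairs, and the main test used no pairing. Deviations of same-numbered arrays correlated at 0.009 between GW2580 and 2-week vehicle and at 0.002 between the vehicle groups. Between GW2580 and 1-week vehicle the correlation was 0.29, and whether these arrays share a source is not known. The 15 alternatives covered filter, probe set choice, scaling, prior, array weights, the arrays fitted, a replicate block and each array left out.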

Additional observations from a re-analysis of the deposited data

How the results depend on the processing

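Arrays give signal and no depth, dim probe sets limit what can be read, and with 2 arrays a group the calls depend on single arrays. Of 480 alternative values for 32 named results, 442 kept direction and side of the threshold, 15 lost a call, 10 gained one and 13 changed sign. The cause was not tested where no construction shows it. Members called between the weeks (2) numbered 4 with a common 75th percentile and 4 with array weights, Chac1 and Herpud1 being added, and 0 to 3 with 1 array left out. With GW2580 against vehicle (1) they numbered 2 with a trended and robust prior, 0 with array weights (Sdf2l1 at an adjusted p of 0.0509), 0 with only the 4 arrays compared (0.107), and 0 whichever array was left out. GW2580 against 1 week (0) gave 0 to 1, Trib3 at 0.0482 without GW2580 replicate 1. With the replicate number as a block, 2, 1 and 0 members were called, as without it, and over all genes 1223, 154 and 182 were called, against 844, 48 and 67. The labels do not say whether the numbers mark pairs. Calls over all genes between the weeks numbered 1316 with array weights and 0 to 1059 with 1 array left out. With GW2580 against vehicle they numbered 74 with no filter, 193 with all 45037 probe sets, 131 with a trended and robust prior, 15 with array weights, 0 with only the 4 arrays, and 0 to 167 with 1 array left out. For GW2580 against 1 week they numbered 139 with that prior, 36 with all probe sets, 24 with only the 4 arrays, and 0 to 169 with 1 array left out. The median of the 18 chaperone and degradation genes between the weeks (-0.35) was -0.24 with the mean of all probe sets, and -0.37 to -0.24 with 1 array left out. With GW2580 against vehicle (0.21) it was 0.13 to 0.22, and against 1 week (-0.06) it was -0.12 to 0.01, above 0 without 1-week replicate 1 (0.0078). The median of the amino acid genes was 0.04 to 0.19 between the weeks, -0.37 to -0.18 with GW2580 against vehicle and -0.42 to -0.15 against 1 week. That of the factors was -0.21 between the weeks with the mean of probe sets, and -0.15 to 0.07 with 1 array left out, above 0 without 2-week vehicle replicate 1 (0.075). With GW2580 against vehicle it was -0.01 to 0.21, below 0 without that array (-0.013), and against 1 week -0.03 to 0.12, below 0 without 1-week replicate 1 (-0.032). With the mean of all probe sets, Sel1l (-0.038 between the weeks, 0.24 with GW2580), Eif2ak3 (-0.059 and 0.14) and Xbp1 (-0.023 between the weeks) changed sign. Xbp1 between the weeks was also -0.032 with a common 75th percentile. With 1 array left out it was -0.014 to 0.021, below 0 without 1-week replicate 2 (-0.0097) or 2-week vehicle replicate 2 (-0.014). Sel1l with GW2580 was -0.29 to 0.00035, above 0 without GW2580 replicate 1. Atf6 was -0.38 to 0.22 between the weeks, above 0 without 2-week vehicle replicate 1, and -0.49 to 0.11 with GW2580, above 0 without replicate 2 of that group. Sdf2l1 for GW2580 against 1 week was -0.12 to 0.032, above 0 without 1-week replicate 1 (0.032) or GW2580 replicate 1 (0.00074).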
